A study of Homo sapiens and Mus musculus with 4 samples.

Results

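TWIST1, TWIST2, SNAI1 and SNAI2 are 4 genes for transcription factors that are studied as brakes on differentiation. TEAD peaks were counted around them in 2 deposited peak lists. A peak counted as near a gene when its midpoint lay within 150 kb of the gene's transcription start site, on either side. By this rule 14 of the 22681 peaks of the RD list and 37 of the 47033 peaks of the YAP-ERMS list were near the 4 genes. The study profiled TEAD binding by chromatin immunoprecipitation and sequencing (ChIP-seq) in a TEAD and an IgG library of RD, an established human embryonal rhabdomyosarcoma cell line, and in a TEAD and an input library of YAP-ERMS cells. YAP-ERMS cells are mouse cells derived from YAP-driven tumours that arose under Myf5-Cre or Pax7-CreER, which are drivers active in muscle precursor and satellite cells. The labels do not say which of these drivers the profiled cells carried, nor whether they were a clone or a pool. Each group held 1 library, so no value below has a replicate error, and the files used do not show how deeply the libraries were sequenced. The lists hold neither expression nor a readout of differentiation, so whether the 4 genes act as brakes in these cells was not measured, and neither was the identity of the cells from marker genes.

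TEAD proteins bind DNA and recruit the co-activators YAP1 and TAZ, whose entry into the nucleus the Hippo kinases restrain. TWIST1 and TWIST2 are basic helix-loop-helix factors that take E proteins, and so E-box binding, away from the myogenic factors such as MYOD1. SNAI1 and SNAI2 are zinc finger repressors that bind E-boxes and are best known for epithelial-mesenchymal transition, and in myoblasts they can keep MYOD1 off the promoters of differentiation genes.

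Of the promoters of the 4 genes, only that of TWIST2 is shown. It comes from the RefSeq promoter table (GRCh38.p14, chr2:238847835-238848134, plus strand, 250 bases before to 50 after the gene's start). That the others are not shown does not mean that the table lacks them. The capitals mark the bases from the gene's start on.
TWIST2: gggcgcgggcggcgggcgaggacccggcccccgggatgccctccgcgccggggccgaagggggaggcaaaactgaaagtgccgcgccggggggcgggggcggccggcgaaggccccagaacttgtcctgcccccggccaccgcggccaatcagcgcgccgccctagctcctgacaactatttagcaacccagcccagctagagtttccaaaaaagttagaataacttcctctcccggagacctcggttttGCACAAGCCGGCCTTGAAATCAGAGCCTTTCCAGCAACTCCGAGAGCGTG
This stretch was 66.7% G and C, against a median of 58.7% over the 35116 promoters of 300 bases in the table. It held 0 matches on either strand to GGAATG, the core of the TEAD motif, which 14.0% of these promoters held. It also held 0 matches to CANNTG, the E-box, which 68.7% held, and 0 to TGANTCA, an AP-1 motif that 7.71% held. A match or its lack describes these letters and not binding. GRCh38 is not the build of the peak lists, so these positions are not set beside those of the peaks.

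In RD, 3 of the 4 genes had a peak within 150 kb, and in YAP-ERMS all 4 did. The background was taken from windows of the same width, 300 kb, laid end to end along each list between the outermost peaks of each chromosome. Of these windows, 59.6% held at least 1 peak in RD (5819 of 9761) and 77.3% in YAP-ERMS (6593 of 8533), so a window with any peak is common in both lists. The 4 gene windows averaged 3.50 peaks in RD, against a mean of 2.31 and a median of 1 over all windows. SNAI1 alone supplied 9 of these 14 peaks, and without it the other 3 gene windows averaged 1.67, below the mean of all windows. In YAP-ERMS the 4 gene windows averaged 9.25 peaks, and 7.33 without Snai1, against a mean of 5.49 and a median of 4. The sums carried exact Poisson 95% intervals of 7.65 to 23.5 for the 14 RD peaks and 26.1 to 51.0 for the 37 YAP-ERMS peaks, which hold for counting error and assume that peaks occur independently of each other. The lists do not meet that assumption: the variance of the window counts was 4.62 times their mean in RD and 5.64 times in YAP-ERMS, so these intervals and those below are too narrow. The windows include gene-poor stretches and assembly gaps, and no annotation of these builds was used, so the 4 genes were not compared with other genes.

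The order of the genes was SNAI1 with 9 peaks, SNAI2 with 4, TWIST2 with 1 and TWIST1 with 0 in RD. In YAP-ERMS it was Snai1 with 15, Twist2 with 8, and Twist1 and Snai2 with 7 each. The exact Poisson 95% interval of SNAI1 in RD, 4.12 to 17.1, did not overlap that of TWIST1, whose upper limit was 3.69. It overlapped those of SNAI2, 1.09 to 10.2, and of TWIST2, 0.0253 to 5.57. In YAP-ERMS the interval of Snai1, 8.40 to 24.7, overlapped those of Twist2, 3.45 to 15.8, and of Twist1 and Snai2, 2.81 to 14.4 each. The intervals of neighbours in the order therefore overlapped in both lists. Since the intervals are too narrow and 5 of the 9 SNAI1 peaks in RD lay in 2 runs of nearby peaks, the gap between SNAI1 and TWIST1 is not read as a difference between the genes.

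**Figure D1:**
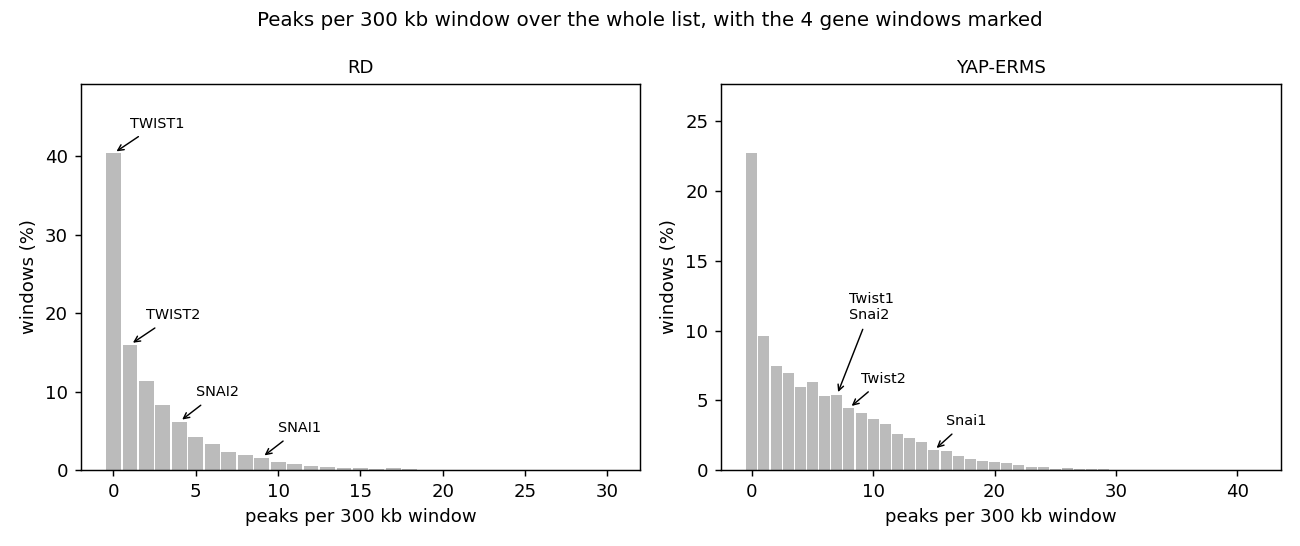
Share of 300 kb windows (vertical axis, percent) by the number of TEAD peaks they held (horizontal axis) in RD and in YAP-ERMS, with arrows at the counts of the 4 gene windows. SNAI1, with 9 peaks in RD and 15 in YAP-ERMS, lies in the right tail of both lists, and TWIST1 in RD lies in the bar of windows with 0 peaks.

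TWIST1, whose loss of function in people causes a craniosynostosis syndrome, was the gene with no RD peak. Its start site in hg19 lies on chromosome 7 at 19.157 Mb, and no peak midpoint was listed within 150 kb of it. In RD, 40.4% of windows held no peak, so this count is near the background. The nearest RD peak was 288 kb upstream of the start site and scored 342.0. Of points laid every 10 kb along the RD list, 73.7% had a peak at least as near. The list shows only regions that passed the authors' limit, so weaker enrichment near TWIST1 was not measured.

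In YAP-ERMS, 7 peaks lay near Twist1, whose start site in mm9 is on chromosome 12 at 34.643 Mb, and 35.5% of windows held at least 7. The nearest was 15.3 kb downstream, at 34657775 to 34658803, with a score of 193. A peak at least as near was found for 32.9% of the points laid along this list. The 3 highest scoring peaks were farther out. The first, at 34759415 to 34761937 and 118 kb downstream, had a score of 830 and was 2523 bp wide, 1.78 times the median of peaks of like score. The second, at 34724238 to 34725534 and 81.9 kb downstream, had a score of 612. The third, at 34536007 to 34537300, was the one peak on the upstream side, 106 kb away, with a score of 583. These 3 peaks were in the top 20% of the list by score, and the other 4 had scores from 101 to 289. Twist1 thus had 6 of its 7 peaks downstream and none within 10 kb of its start.

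TWIST2, the close relative of TWIST1 also called Dermo1, had 1 RD peak. It lay on chromosome 2 at 239772892 to 239773117 (hg19), 16.0 kb downstream of the start site at 239.757 Mb. It was 226 bp wide, and its score of 134 was above 33.1% of the list. At least 1 peak was held by 59.6% of windows, and a peak at least as near by 16.5% of points. No second peak was listed before 212 kb from the start site.

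In YAP-ERMS, 8 peaks lay near Twist2, with its start site on chromosome 1 at 93.698 Mb (mm9), and 30.2% of windows held at least 8. They were spread evenly, 4 upstream and 4 downstream. The nearest, at 93712777 to 93713570, was 15.2 kb downstream and had a score of 84.1, close to the lowest score of the list, 80. A peak at least as near was found for 32.7% of points. The highest scoring, at 93719398 to 93720662 and 22.0 kb downstream, scored 525. The next lay 108 kb upstream, at 93588954 to 93590327, and scored 424. After it came one 146 kb downstream, at 93843805 to 93844765, that scored 416. The first of these 3 was the one Twist2 peak in the top 20% of the list. The other 4 peaks had scores from 81.1 to 293.

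SNAI1, also called Snail, had the most peaks of the 4 genes in both lists. Its start site in hg19 lies on chromosome 20 at 48.6 Mb, and at least 9 peaks were held by 5.86% of RD windows. Of the 9 RD peaks, 7 lay downstream and 2 upstream. The nearest, at 48624649 to 48624843, was 24.7 kb downstream with a score of 124, and 22.7% of points had a peak at least as near. The highest scoring, at 48720163 to 48720665, was 120 kb downstream, with a score of 549 that was above 84.7% of the list. The next was 96.3 kb upstream, at 48503558 to 48503843, with a score of 144, and after it came the nearest peak. All 8 peaks other than the highest were below the list's median score of 189. There were 5 peaks between 100 and 150 kb and none within 10 kb.

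In YAP-ERMS, 15 peaks lay near Snai1, whose start site is on chromosome 2 at 167.364 Mb (mm9), and 7.71% of windows held at least 15. Of these, 13 lay downstream and 2 upstream. The nearest was also the highest scoring. It lay 14.7 kb downstream, at 167377733 to 167379592, with a score of 545 and a width of 1860 bp, and 32.0% of points had a peak at least as near. The next was 96.1 kb downstream, at 167459381 to 167460727, and scored 502. After it came one 68.4 kb downstream, at 167431807 to 167432942, that scored 353. The other 12 had scores from 85.0 to 338, and 1 of the 15 was in the top 20% of the list. The many Snai1 peaks were thus mostly of middle or low score.

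The downstream side held most SNAI1 peaks in both species, and in RD most of them were far from the start site. In human RefSeq the next protein-coding genes beside SNAI1 are RNF114 on the upstream side and PEDS1-UBE2V1 on the downstream side. Whether the distant RD peaks lie within PEDS1-UBE2V1 was not determined, because the gene table is of another build. The rule selects peaks by distance and does not assign them to a gene.

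SNAI2, also called Slug, a repressor expressed in muscle precursors, was the one gene of the 4 with a peak within 10 kb of its start site, and this was so in both lists. The share of points with a peak within 10 kb was not computed. In RD it lies between 2.88%, the share at 2.1 kb, and 16.5%, the share at 16.0 kb. In YAP-ERMS it lies between 6.24%, at 1.8 kb, and 32.0%, at 14.7 kb. A peak within 10 kb is therefore not read as a trait of SNAI2. In RD, 4 peaks lay near SNAI2, with its start site on chromosome 8 at 49.834 Mb (hg19), and 23.9% of windows held at least 4. The nearest was 2.1 kb upstream, at 49835954 to 49836221, with a width of 268 bp and a score of 146, above 37.3% of the list. A peak at least as near was found for 2.88% of points. A second upstream peak, at 49842978 to 49843179 and 9.1 kb away, had a score of 81.0, close to the list's lowest. The other 2 lay downstream, toward CLXN, the next protein-coding gene on that side in human RefSeq. One, at 49750634 to 49751184 and 83.1 kb away, measured 551 bp and scored 861, above 92.6% of the list and the highest of the 14 RD peaks. The other, at 49704895 to 49705206 and 129 kb away, had a score of 96.9.

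In YAP-ERMS, 7 peaks lay near Snai2, with its start site on chromosome 16 at 14.706 Mb (mm9), and 35.5% of windows held at least 7. The nearest, at 14702593 to 14705835, had its midpoint 1.8 kb upstream, and 6.24% of points had a peak at least as near. It was 3243 bp wide, the widest of the 37, with a score of 887 that was above 90.9% of the list. Its width was 2.25 times the median of peaks of like score, a ratio that 0.887% of the list reached. Its edge ended 0.16 kb from the start site, which is less than the 0.5 kb to which the site is known. It was flanked by 2 peaks that were picked out after their values were seen: one at 14701376 to 14702312, 4.2 kb upstream, with a score of 139, and one at 14707274 to 14708343, 1.8 kb downstream, with a score of 353. These 3 peaks formed a run of 6.97 kb around the start site.

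The other strong Snai2 peaks lay far downstream. The highest scoring of the 37, at 14826661 to 14828098, was 121 kb downstream and had a score of 1331, above 95.8% of the list. The second highest, at 14819032 to 14820402, was 114 kb downstream and had a score of 1132. Together with a weaker peak of score 85.5 they formed a run of 11.6 kb. The highest scoring peak near the 4 genes was thus a distant downstream SNAI2 peak in both lists. Close to the start site, the nearest peak midpoint was at a like distance in both lists, 1.8 kb upstream in YAP-ERMS and 2.1 kb upstream in RD. In YAP-ERMS another midpoint lay 1.8 kb downstream. With the start site moved up by 0.5 kb that one became the nearest, at 1.31 kb, so the side of the nearest YAP-ERMS peak is not settled. The nearest edges were 0.16 kb and 1.95 kb away, but edge distance depends on width, and the 2 upstream peaks were 3243 bp and 268 bp wide. The nearest RD peak scored below the median of its list. Whether the downstream regions of the 2 species correspond was not tested, because no alignment of the genomes was used.

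**Figure D2:**
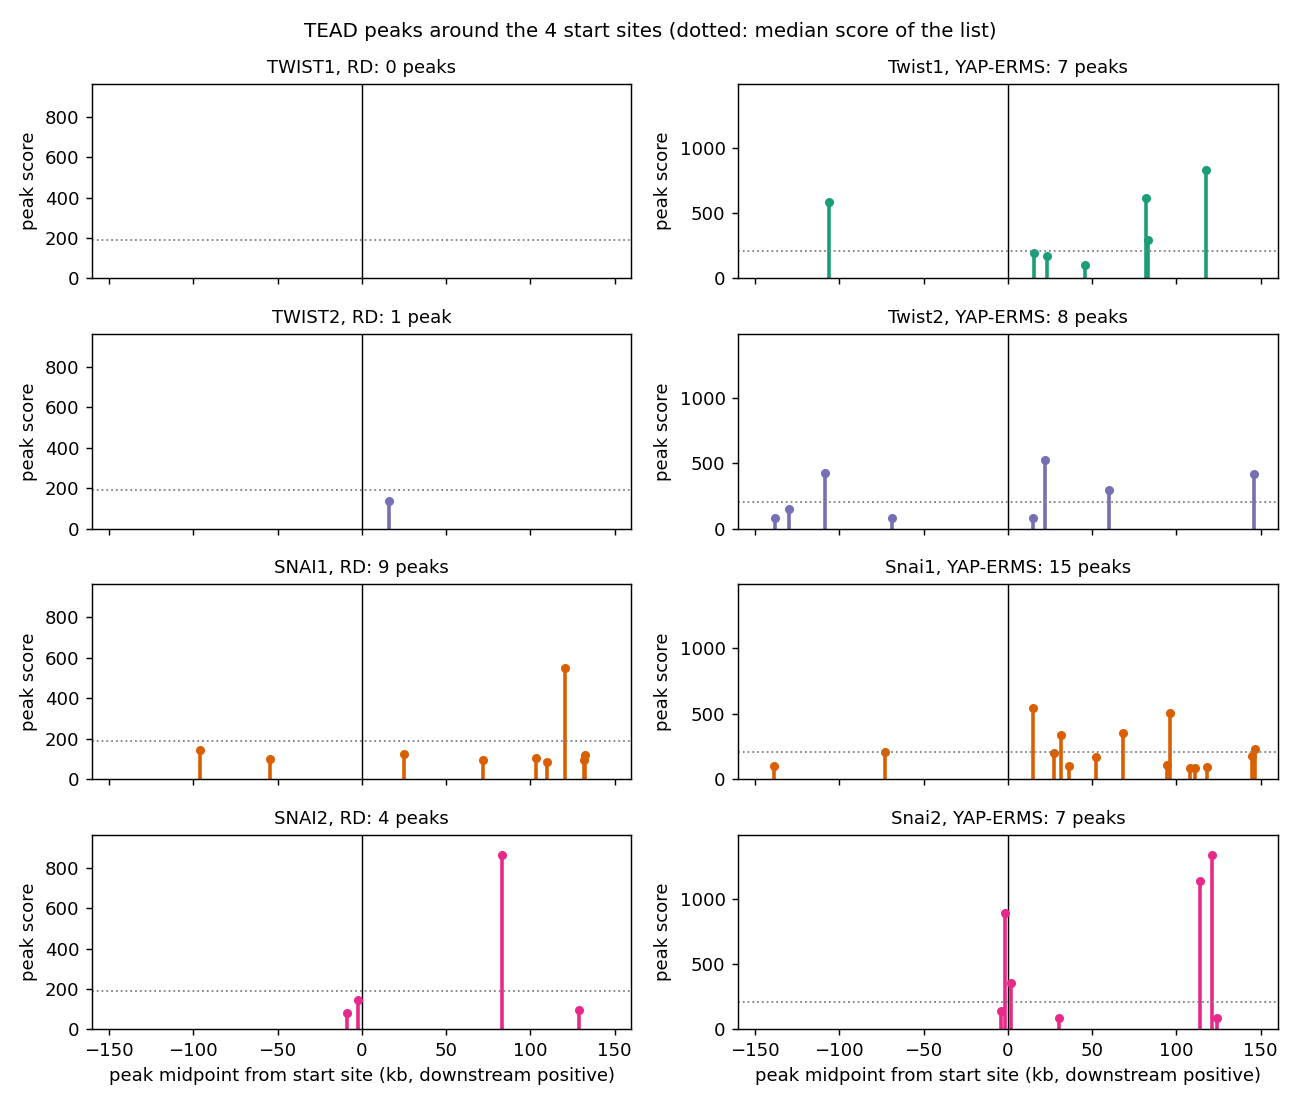
TEAD peaks by distance of their midpoint from the start site (horizontal axis, kb, downstream of the gene positive) and by score (vertical axis), for each gene in RD on the left and in YAP-ERMS on the right. Dotted lines mark the median score of each list, and scales differ between the lists. SNAI2 has peaks within 10 kb of the start site in both lists and its highest peak, at 861 in RD and 1331 in YAP-ERMS, well downstream.

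**Figure D3:**
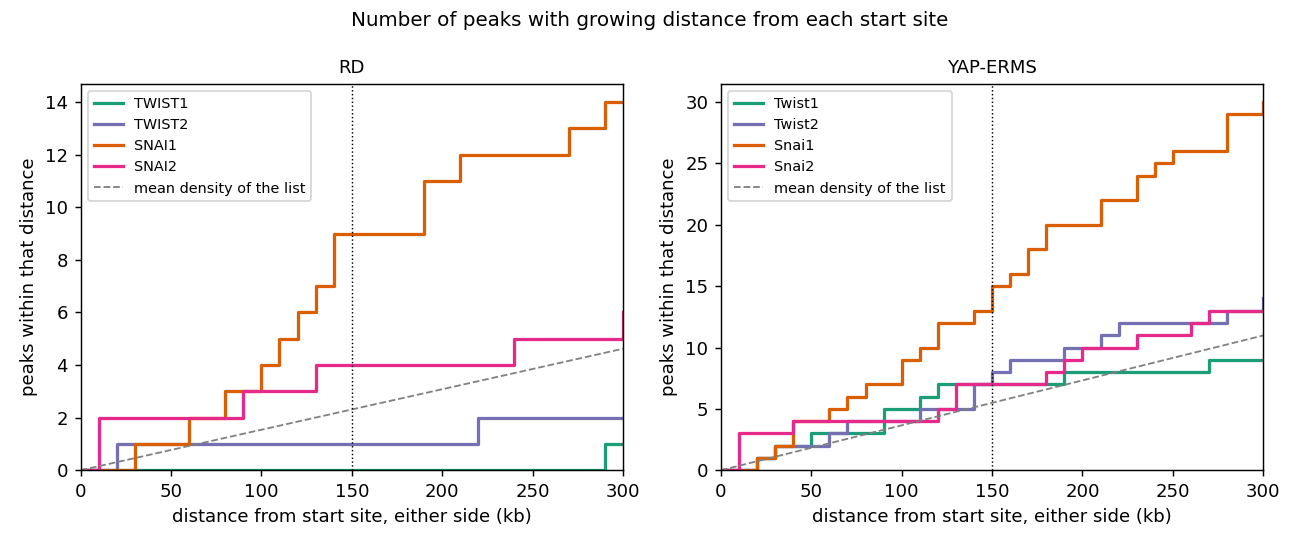
Number of peaks (vertical axis) within a growing distance of each start site on either side (horizontal axis, kb, in steps of 10 kb), with the mean density of the list as a dashed line and 150 kb as a dotted line. SNAI2 starts with 2 peaks within 10 kb in RD and 3 in YAP-ERMS, while the other genes have none within that distance in either list.

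Scores and widths were then set beside those of the whole lists, without comparing scores between lists, since they depend on depth and control. In RD, the median score of the 14 peaks near the genes was 108.8, against 189.4 over the list. Of the 14, 2 were above the list's median, and the same 2, the distal SNAI2 and SNAI1 peaks, were in its top 20%. In YAP-ERMS, the median score of the 37 peaks was 195.8, against 205.1 over the list. Of the 37, 18 were above the list's median and 8 were in its top 20%, which is 21.6% of them, against 20% of the list by construction. Those 8 were 3 peaks each of Twist1 and Snai2 and 1 each of Twist2 and Snai1. Near the 4 genes, RD peaks thus had mostly low scores, and YAP-ERMS peaks had scores like those of their list. SNAI1 supplied 9 of the 14 RD peaks, so the RD values describe mostly that window. By gene, the RD median score was 101.2 for SNAI1, 121.3 for the 4 SNAI2 peaks and 134.3 for the 1 TWIST2 peak.

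The median width was 281.5 bp for the 14 RD peaks, against 335 bp over the list, and 1094 bp for the 37 YAP-ERMS peaks, against 1083 bp. Width was also set beside that of peaks of like score in the same list. The median difference was then 0.11 log2 units in RD and -0.01 in YAP-ERMS. A width over 2 times that of peaks of like score was found for 0 of the 14 RD peaks, against 0.701% of the list, and for 1 of the 37 YAP-ERMS peaks, against 1.82%. That 1 was the Snai2 peak at the start site.

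**Figure D4:**
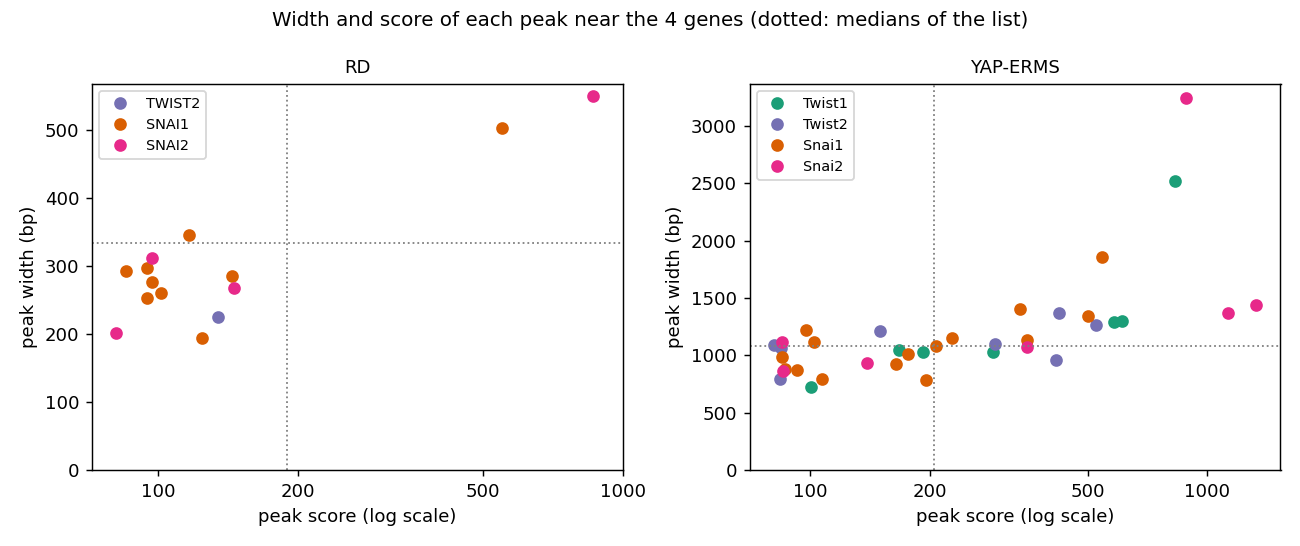
Width (vertical axis, bp) against score (horizontal axis, log scale) of each peak near the 4 genes in RD and in YAP-ERMS, with dotted lines at the medians of the whole list. In RD, 12 of the 14 peaks lie left of the median score, and in YAP-ERMS the 3243 bp Snai2 peak and the 2523 bp Twist1 peak stand above the others.

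Runs of neighbouring peaks no more than 10 kb apart held 7 of the 14 RD peaks, against 46.9% of the whole list. In YAP-ERMS they held 25 of the 37, or 67.6%, against 59.1%. The runs near the genes with the most peaks had 3 each. In RD there was 1 of these, 103 to 120 kb downstream of SNAI1. In YAP-ERMS there were 4, of which 2 were near Snai1, at 27.5 to 36.5 kb and 108 to 118 kb downstream, and 2 near Snai2, at its start site and at 114 to 124 kb downstream. Runs of at least 3 peaks held 23.3% of the RD list and 34.5% of the YAP-ERMS list.

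The limit of 150 kb passed between neighbouring peaks in several places. In YAP-ERMS, the outermost Twist2 peak inside it was at 146 kb with a score of 416, and the first outside was at 155.0 kb with a score of 1123. Near Snai1 the values were 147 kb with a score of 227 inside and 152 kb with a score of 243 outside. Near Snai2 the outermost inside was at 124 kb with a score of 85.5, and the first outside, at 179 kb, had a score of 1370, above that of every Snai2 peak counted. In RD the first peaks outside were farther from the limit, at 182 kb for SNAI1, 212 kb for TWIST2, 238 kb for SNAI2 and 288 kb for TWIST1, with scores of 141, 87.1, 182 and 342.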

How the data were processed

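The authors deposited 1 peak list per cell type, with start, end, name and score of each peak. Bowtie2 and the builds hg19 and mm9 are named in the submitters' processing notes, and the lists' sequence names fit these builds. The peak names are those that MACS writes, and the lists' names give a p-value limit of 1e-08 and the control, which was IgG in RD and input in YAP-ERMS. The deposited score was taken to be -log10 of the p-value multiplied by 10, since the lowest is 80 in both lists. The scores are the authors' own. For versions, read filters and duplicate handling: not given in the sources used here.

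Start sites came with the rule that chose the members, to the nearest kb. The direction of each gene is general knowledge. Peaks were counted by midpoint (Python 3.11.15, numpy 2.4.6, pandas 2.3.3, scipy 1.17.1), positions are 1-based, and width at like score is against the median of 50 score bins. Intervals are exact Poisson 95% intervals, cover counting error only and are too narrow for clustered peaks. Tested on simulated data, with peaks planted around the 4 start sites, the count was right in 8 of 8 cases. No p-value was computed, since each group has 1 library. The members and lists were chosen with earlier results of these data known. Peaks were named one by one up to 6 a gene and list, and otherwise the nearest and the 3 highest scoring. Counts for related genes such as ZEB1 were planned but need an annotation of hg19 or mm9, which was not used here.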

Additional observations from a re-analysis of the deposited data

How the results depend on the processing

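The numbers of peaks near the 4 genes, 14 in RD and 37 in YAP-ERMS, follow the size of the window by construction. They became 4 and 13 within 50 kb, 6 and 18 within 75 kb, and 23 and 66 within 300 kb. Peaks above the list's median score numbered 2 and 18, and those in the top 20% of the list 2 and 8. Counting any overlap, joining peaks within 1 kb and moving the start sites by 0.5 kb kept both within 1.5 times, with 13 or 14 peaks in RD and 33 to 37 in YAP-ERMS. SNAI1 did not lead in every setting. Within 50 kb SNAI2 had 2 RD peaks and SNAI1 1, and in YAP-ERMS both had 4. Both had 1 in RD among peaks above the median score and in the top 20%, and in the top 20% of YAP-ERMS Twist1 and Snai2 had 3 each and Snai1 1. Among peaks above the median score, the nearest RD peak lay 83.1 kb from SNAI2, 120 kb from SNAI1 and 387 kb from TWIST2. The nearest YAP-ERMS peak then lay 81.9 kb from Twist1 and 22.0 kb from Twist2, and stayed at 1.8 kb for Snai2. Windows shifted by 150 kb, or taken from the gene's own chromosome, were added after the data were seen. They moved the share of windows with at least as many peaks by less than 1.5 times wherever the gene had a peak. TWIST1 had 0 peaks in RD, and every window holds at least 0, so its share could not move. The 40.4% of RD windows with no peak was not recomputed in these settings. No paired analysis was possible because each group has 1 library and no test was run. The depth of the libraries is unknown, so missing peaks cannot be told from shallow sequencing.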
